A study of Mus musculus with 4 samples.

Results

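The interferon-inducible GTPases examined here are 9 mouse genes of the guanylate-binding protein (GBP) and immunity-related GTPase (IRG) families: Gbp2, Gbp3, Gbp5, Gbp6, Irgm1, Irgm2, Igtp, Iigp1 and Tgtp1. They were taken by symbol from the 43629 genes counted in each of 4 RNA-seq libraries, and all 9 were counted. A filter on low counts left 16500 genes for testing, with 8 of the 9 among them, and Gbp6 did not pass it. Each library came from CD117+ hematopoietic stem and progenitor cells (HSPCs) of C57Bl/6 mice whose Chaf1b alleles are floxed (fl/fl). Chaf1b codes for a subunit of the histone chaperone CAF-1, which places new histones on DNA behind the replication fork. The 2 control libraries (MIGR1) were from cells spinfected with the empty retroviral vector, and the 2 dChaf1b libraries from cells spinfected with the same vector carrying Cre recombinase, which excises the floxed sequence. Both groups were therefore floxed, exposed to retrovirus, sorted for the eGFP of the vector after 48 h and cultured with 50 ng/mL SCF, IL-6 and 10 ng/mL IL-3. The labels give 20 ng/mL for IL-6, and the study's methods give another value. The mice of the study were killed at an age of 8 to 12 weeks. Whether libraries of a group came from separate animals or cultures is not given in the sources used here. Both groups were exposed to the vector, and with no library without retrovirus its own effect on the levels cannot be read here. There is no library of Cre-transduced cells that lack the floxed alleles. Effects of Cre itself therefore cannot be told apart from the loss of Chaf1b in these data.

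GBPs and IRGs are GTPases that cells make in response to interferons and that assemble on the vacuoles of intracellular bacteria and parasites. Interferon-γ acts in part through gamma-activated sequences (GAS) and through the transcription factor IRF1. Type I interferons act mainly through a complex that contains STAT2 and IRF9 and binds interferon-stimulated response elements (ISRE). IRGs comprise effector proteins that load onto vacuoles and regulatory proteins of the IRGM class that hold the effectors inactive on the cell's own membranes. In blood formation Irgm1 is known for limiting the response of hematopoietic stem cells to interferon.

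The letters around the interferon elements of the start regions are shown first, because 7 of the 9 genes hold one of them near their start. RefSeq windows of 300 bases, from 250 before to 50 after a gene's start (build GRCm38.p6), were present for Gbp2, Gbp3, Gbp5, Irgm1, Irgm2, Igtp and Tgtp1. Each window was searched for the ISRE core GAAANNGAAA on both strands and for the GAS core TTCNNNGAA, which reads the same on both strands. Of the 7 genes with a window, 7 held the ISRE core and 4 held the GAS core. Over all 32851 windows, 3.44% held the ISRE core, 8.3% the GAS core and 0.454% both. The stretches below run 5′ to 3′ on the strand of the gene, and capitals mark the matches. In Gbp2, Gbp3 and Gbp5 the ISRE core lies on the opposite strand and is read here as its reverse complement. In Gbp3 and Irgm1, 2 overlapping ISRE matches form a single run of capitals. In Irgm2, Igtp and Tgtp1 the first run of capitals is a GAS match and the second an ISRE match.
Gbp2 (chr3:142620592-142620625, + strand): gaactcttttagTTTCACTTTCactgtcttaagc
Gbp3 (chr3:142559987-142560026, + strand): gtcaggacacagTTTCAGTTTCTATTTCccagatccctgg
Gbp5 (chr3:142496757-142496790, + strand): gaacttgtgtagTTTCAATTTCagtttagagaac
Irgm1 (chr11:48871423-48871462, - strand): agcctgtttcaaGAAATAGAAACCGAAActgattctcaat
Irgm2 (chr11:58214890-58214934, + strand): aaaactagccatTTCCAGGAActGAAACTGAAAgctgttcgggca
Igtp (chr11:58199499-58199543, + strand): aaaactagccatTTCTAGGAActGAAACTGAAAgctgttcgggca
Tgtp1 (chr11:48992302-48992346, - strand): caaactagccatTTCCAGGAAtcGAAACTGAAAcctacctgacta

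The ISRE match nearest to the start began at position -24 in Irgm1, -34 in Igtp and -39 in Gbp3, counted from the annotated start. It began at -59 in Gbp2, -64 in Irgm2, -77 in Tgtp1 and -165 in Gbp5. Gbp5 also held GAS matches at -245 and -52, outside the stretch shown. A match of letters is a description of the window, and binding was not measured in these libraries.

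Reads counted on genes numbered 22.7 and 25.4 M (M is 1000000) in the MIGR1 libraries and 23.5 and 18.5 M in the dChaf1b libraries. Values are given as counts per 1000000 counted on genes (CPM), in which 3 counts correspond to between 0.118 and 0.162 CPM. Chaf1b itself had 80.3 and 57.9 CPM in MIGR1 replicates 1 and 2, and 16.1 and 17.9 CPM in dChaf1b replicates 1 and 2. It was lower in both dChaf1b libraries, with a log2 fold change of -2.0 (SE 0.245, adjusted p = 0.0330, edgeR's quasi-likelihood test, Benjamini-Hochberg adjusted). The library labelled dChaf1b replicate 1 stands apart from the other 3, with 336 CPM of Xist, the RNA of the inactive X chromosome, against 1.14 to 1.30 CPM elsewhere. The 2 dChaf1b libraries were also the extremes in reads outside genes, with 35.8% in replicate 1 and 48.3% in replicate 2 against 42.1% and 42.3% in the controls, and in TMM factor, with 0.926 and 1.06. The part of these differences in the results was not tested. The sex of the donor and the state of the cells in that library cannot be told apart here, and its values are therefore given separately from those of dChaf1b replicate 2 throughout. For HSPC markers, Kit had between 95.6 and 124 CPM and Cd34 between 76.9 and 134 CPM over the 4 libraries.

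**Figure D1:**
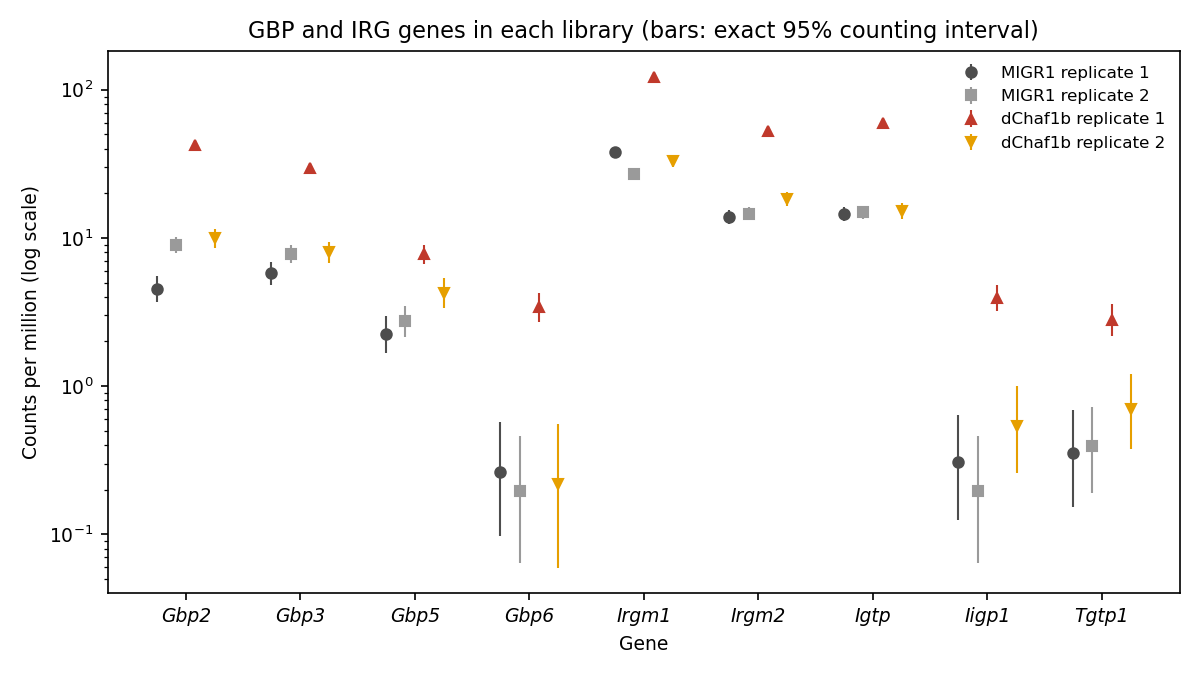
CPM (log scale) of the 9 GBP and IRG genes in each of the 4 libraries, with exact 95% counting intervals. For each of the 9 genes dChaf1b replicate 1 is the highest point.

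In these data the GBP and IRG genes were high in 1 of the 2 Chaf1b-deleted libraries. In dChaf1b replicate 1 the CPM of the 9 genes was between 3.09 and 15.7 times the mean of the MIGR1 libraries, with a median of 4.39. In dChaf1b replicate 2 the same ratio lay between 0.940 and 2.15, with a median of 1.28. Over all genes tested, the median ratio was 0.889 for dChaf1b replicate 1 and 1.05 for dChaf1b replicate 2. Summed over the 9 genes, the level was 80.0 and 76.8 CPM in the MIGR1 libraries, 322 CPM in dChaf1b replicate 1 and 90.1 CPM in dChaf1b replicate 2. In these bulk libraries, more cells with the transcripts and more transcript per cell cannot be told apart.

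The GBPs are large GTPases of the dynamin superfamily. Gbp2, which coats the vacuoles of Toxoplasma, is a protein-coding gene on chromosome 3 (142283566 to 142300972, + strand, NCBIM37, the build of the counts). Gbp2 had 4.53 and 8.97 CPM in MIGR1 replicates 1 and 2, 42.1 CPM in dChaf1b replicate 1 and 9.96 CPM in dChaf1b replicate 2. The value in dChaf1b replicate 1 was far above the other 3, and that in dChaf1b replicate 2 lay just above the higher control, while the controls themselves differed 1.98-fold. Gbp3, a neighbor of Gbp2 on the same strand (142223016 to 142236173), had 5.76 and 7.83 CPM in the MIGR1 libraries and 29.8 and 8.01 CPM in dChaf1b replicates 1 and 2. Again dChaf1b replicate 1 stood apart, while the 8.01 CPM of dChaf1b replicate 2 differs from the higher control by less than the controls differ from each other.

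Gbp5, known to promote assembly of the NLRP3 inflammasome, lies near Gbp3 on the same chromosome (142159864 to 142185308, + strand). Gbp7 lies between Gbp5 and Gbp3. Gbp5 had 2.24 and 2.75 CPM in the MIGR1 libraries, 7.73 CPM in dChaf1b replicate 1 and 4.28 CPM in dChaf1b replicate 2. Both dChaf1b libraries were above both controls, and the ratio in dChaf1b replicate 1, 3.09, was the lowest of the 9 genes. Gbp6 lies on chromosome 5 (105699723 to 105722718, - strand) and was counted 6 and 5 times in the MIGR1 libraries, 80 times in dChaf1b replicate 1 and 4 times in dChaf1b replicate 2. These counts correspond to 0.264 and 0.197 CPM, 3.40 CPM and 0.217 CPM. Against the pooled controls the ratio was 14.9 in dChaf1b replicate 1 (95% exact counting interval 7.88 to 31) and 0.948 in dChaf1b replicate 2 (0.220 to 3.20). Of the 31-base stretches in the exons of Gbp6, 92.1% have a second copy in the genome, which makes its counts uncertain.

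Among the IRGs, the 3 regulatory genes carried most of the counts. Irgm1 lies on chromosome 11 (48675470 to 48685185, - strand) and had 38.1 and 27.0 CPM in the MIGR1 libraries. It reached 121 CPM in dChaf1b replicate 1, while the 32.9 CPM of dChaf1b replicate 2 fell between the controls. Irgm2 and Igtp (Irgm3) are neighbors elsewhere on chromosome 11 (58028530 to 58036282 and 58013058 to 58021093, both + strand). Irgm2 had 13.9 and 14.6 CPM in the MIGR1 libraries, 52.6 CPM in dChaf1b replicate 1 and 18.2 CPM in dChaf1b replicate 2. Igtp had 14.5 and 14.9 CPM in the MIGR1 libraries, 59.2 CPM in dChaf1b replicate 1 and 15.3 CPM in dChaf1b replicate 2. For these 2 genes the controls were nearly equal, dChaf1b replicate 1 stood well above them, and dChaf1b replicate 2 lay above both controls by a smaller margin.

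The effectors Iigp1 and Tgtp1 had few counts in the controls. Iigp1 (Irga6), an effector that loads onto the vacuole of Toxoplasma, lies on chromosome 18 (60535683 to 60552281, + strand). It was counted 7 and 5 times in the MIGR1 libraries, 93 times in dChaf1b replicate 1 and 10 times in dChaf1b replicate 2. In CPM these were 0.308 and 0.197, then 3.95 and 0.541. Against the pooled controls the ratio was 15.9 (95% exact counting interval 8.66 to 31.8) in dChaf1b replicate 1. The interval in dChaf1b replicate 2 ran from 0.841 to 5.49 and included 1. Tgtp1 (Irgb6), another effector, lies on chromosome 11 (48798829 to 48807674, - strand). It was counted 8 and 10 times in the MIGR1 libraries, 66 times in dChaf1b replicate 1 and 13 times in dChaf1b replicate 2. Its ratio was 7.50 (4.4 to 13.4) in dChaf1b replicate 1 and 1.88 (0.848 to 4.06) in dChaf1b replicate 2. For Tgtp1, 87.3% of the exonic stretches have another copy in the genome and its exons overlap those of Gm12185 on the same strand, and its counts are uncertain. Both genes passed the low-count filter only through the dChaf1b libraries.

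**Figure D2:**
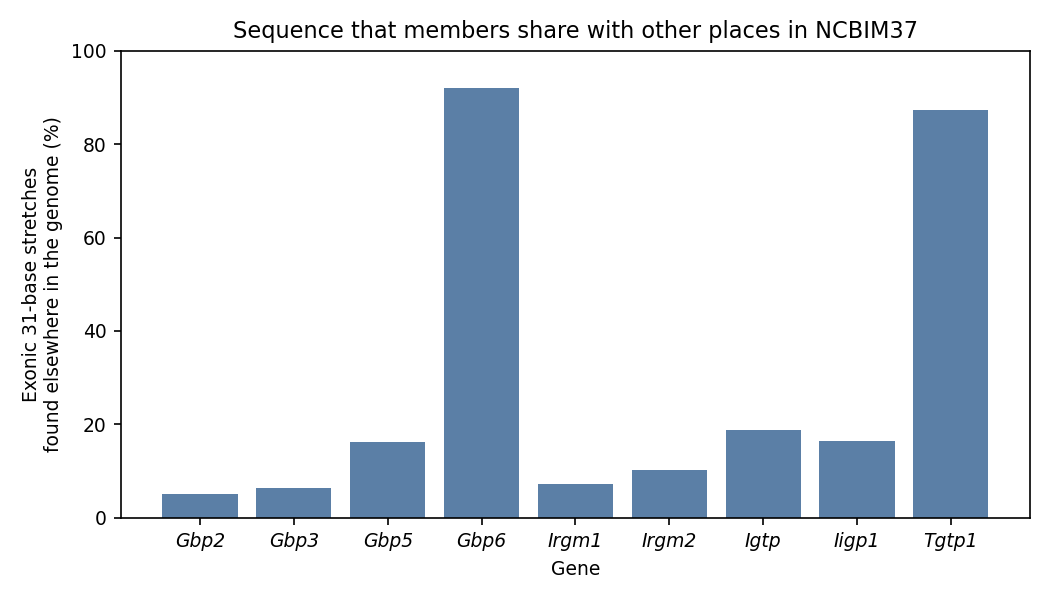
Percent of the 31-base stretches in the exons of each of the 9 genes that occur elsewhere in NCBIM37. Gbp6 (92.1%) and Tgtp1 (87.3%) share most of their exonic sequence, and the other 7 genes lie between 5.17% and 18.8%.

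Per kilobase of exon, the order of the levels in dChaf1b replicate 1 was Igtp (29.3 CPM per kb), Irgm1 (20.8), Gbp2 (16.7), Irgm2 (15.1) and Gbp3 (9.21), followed by Gbp5 (1.92), Iigp1 (1.27), Tgtp1 (0.875) and Gbp6 (0.788). In the MIGR1 libraries Igtp (7.18 and 7.38 CPM per kb) and Irgm1 (6.56 and 4.64) also led. The ranges of Gbp2 (1.80 to 3.57 CPM per kb) and Gbp3 (1.78 to 2.42) overlapped there, as did those of Iigp1 (0.0630 to 0.0986) and Gbp6 (0.0456 to 0.0612) when their counting error is included. The regulatory IRGs were thus the highest of the 9 genes in the controls, with Irgm2 at 4.0 and 4.2 CPM per kb.

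When the 2 dChaf1b libraries were taken as replicates, 0 of the 8 genes tested were differentially expressed genes (DEGs), defined by a change of at least 1.5-fold and an adjusted p under 0.05. The background was 0.370% of all genes tested called higher. At an unadjusted p under 0.05, 7 of the 8 were higher, against 9.15% of all genes, and by edgeR's likelihood ratio test or DESeq2 1 of the 8, Iigp1, was a DEG, among 583 and 471 DEGs that were higher over all genes. Both dChaf1b libraries lay above both MIGR1 libraries for 7 of the 8, against 21.4% of all genes. Both counts of 7 include Iigp1 and Tgtp1, which entered the test only through the dChaf1b libraries, and without these genes each count was 5 of 6. The median log2 fold change of the 8 was 1.49, beside -0.03 over all genes tested. Iigp1 had the largest value, 3.24 (SE 1.01, adjusted p = 0.245, edgeR's quasi-likelihood test, Benjamini-Hochberg adjusted), and Irgm1 and Gbp5 had the smallest, 1.32. Adjusted p-values of the 8 in that test ranged from 0.245 to 0.411, the highest being that of Irgm1. Without the low-count filter 8 of 9 were DEGs, among 808 DEGs that were higher over all genes. Without dChaf1b replicate 1 the log2 fold changes of the 8 ran from -0.069 for Irgm1 to 1.01 for Iigp1. Without dChaf1b replicate 2 they ran from 1.77 for Gbp5 to 4.09 for Iigp1.

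Each dChaf1b library was then compared separately with the 2 controls. In such a fit the spread comes from the 2 MIGR1 libraries alone, the lone library is assumed to vary like them, and the test compares libraries, not conditions. In dChaf1b replicate 1, 7 of the 8 genes were called higher, against 2.70% of all genes tested. Without Iigp1 and Tgtp1, whose passage of the filter rested on the dChaf1b libraries, 5 of the other 6 were called. In edgeR's quasi-likelihood test the 7 genes had log2 fold changes from 2.01 for Irgm2 (SE 0.251) to 4.07 for Iigp1 (SE 0.596). Igtp had the lowest adjusted p, 0.00344 in the same edgeR test, at a log2 fold change of 2.13. Gbp5 was not called, with a log2 fold change of 1.75 (SE 0.418) and an adjusted p of 0.0652 in the edgeR test. In dChaf1b replicate 2, 0 of the 8 were called by edgeR, against 0.739% of all genes. There 0 of the 8 had an unadjusted p under 0.05. Their log2 fold changes there ran from -0.06 for Irgm1 to 1.02 for Iigp1, with adjusted p-values of 0.531 or more in the edgeR test. The medians of the 8 were 2.19 in dChaf1b replicate 1 and 0.39 in dChaf1b replicate 2, beside -0.05 and -0.01 over all genes.

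**Figure D3:**
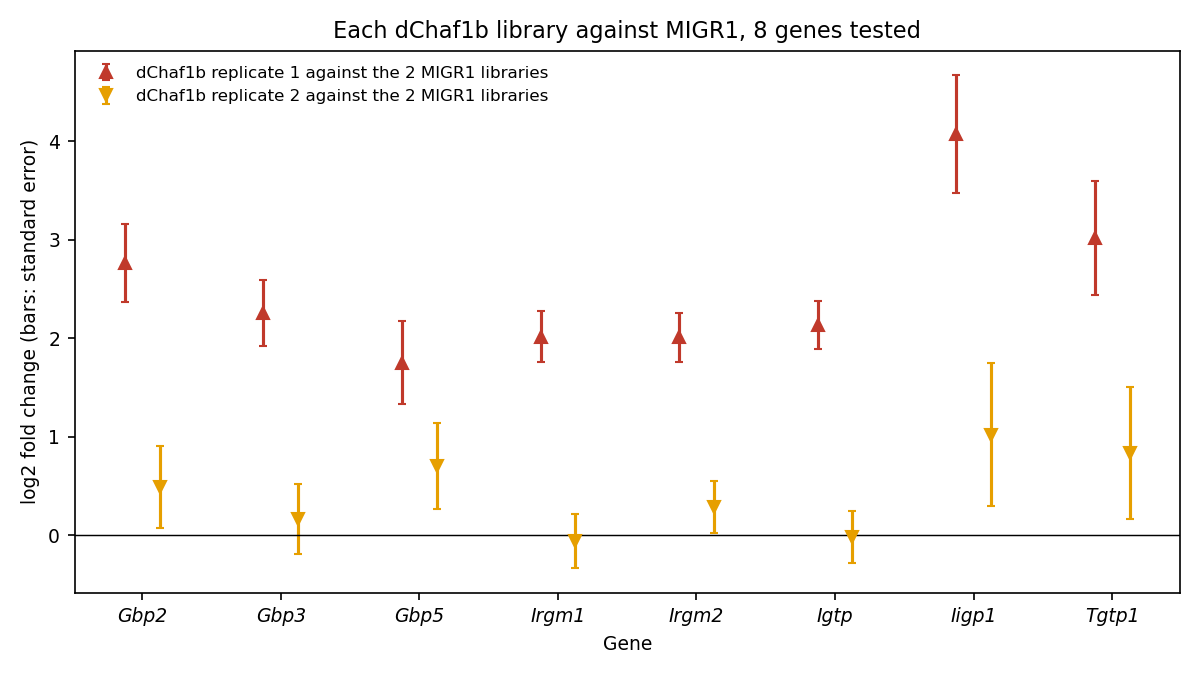
Log2 fold change, with its standard error, of the 8 genes tested in each dChaf1b library against the 2 MIGR1 libraries. Values for dChaf1b replicate 1 run from 1.75 to 4.07, and those for dChaf1b replicate 2 from -0.06 to 1.02.

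By level alone, dChaf1b replicate 1 was the highest of the 4 libraries for 8 of the 8 genes, against 17.6% of all genes tested. It was at least 2-fold above the mean of the controls for 8 of the 8, against 7.58% of all genes. In dChaf1b replicate 2 that mark was reached by 1 of the 8, Iigp1, against 10.7% of all genes. Without Iigp1 and Tgtp1 these 3 counts were 6, 6 and 0 of 6. When the 2 dChaf1b libraries were compared with each other, Igtp was the 1 gene of the 8 called higher in dChaf1b replicate 1 (adjusted p = 0.0322, edgeR's quasi-likelihood test, Benjamini-Hochberg adjusted), against 0.236% of all genes. For the other 7 genes the difference between the dChaf1b libraries did not pass, with adjusted p-values from 0.0505 for Irgm1 to 0.463 for Gbp5 in the same edgeR test.

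The same 2 families have other genes, of which 16 of 18 listed were counted and 12 tested. In dChaf1b replicate 1, 4 of the 12 were called higher, against 2.70% of all genes, and in dChaf1b replicate 2, 0 of 12 were, against 0.739%. The same shares are the background of the calls in each list that follows. Their median log2 fold changes were 1.46 and 0.07. Gbp7 had 57.4 and 64.7 CPM in the MIGR1 libraries, 164 CPM in dChaf1b replicate 1 and 66.9 CPM in dChaf1b replicate 2 (adjusted p = 0.00654 for dChaf1b replicate 1, edgeR's quasi-likelihood test, Benjamini-Hochberg adjusted). Gbp9 had 1.28 and 3.70 CPM in the controls, then 21.2 and 2.76 CPM. Tgtp2, a near copy of Tgtp1 with 94.8% of its exonic stretches found elsewhere, had 3.25 and 2.79 CPM in the controls, then 10.2 and 1.73 CPM. Gm12250, an IRG locus beside Igtp that NCBIM37 lists as a pseudogene, had 1.54 and 3.35 CPM in the controls, then 16.5 and 0.975 CPM. These 4 genes were each highest in dChaf1b replicate 1, and the last 2 were lower in dChaf1b replicate 2 than in either control. Among other interferon-induced GTPases, Mx2, an antiviral dynamin-like protein, had 1.28 and 2.01 CPM in the controls, 9.56 CPM in dChaf1b replicate 1 and 1.68 CPM in dChaf1b replicate 2. Mx2 was called in dChaf1b replicate 1 (adjusted p = 0.0185, edgeR's quasi-likelihood test) and 0 of the 3 genes of that list in dChaf1b replicate 2.

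The 9 genes sit in clusters of their families, and the genes within 500 kb of each cluster gave a local comparison, chosen after the values were seen. In the chromosome 3 cluster (Gbp5, Gbp7, Gbp3 and Gbp2), 3 of 4 family genes and 0 of 4 neighbors were called higher in dChaf1b replicate 1. In the cluster of Gm12250, Igtp and Irgm2, 3 of 3 family genes and 0 of 16 neighbors were called higher, and 1 neighbor was called lower. Around Irgm1 and Tgtp1, 3 of 7 family genes and 1 of 12 neighbors were. That neighbor was Ifi47 (Irgd), itself an IRG that the lists had left out, with 36 and 29.9 CPM in the controls, 72.5 CPM in dChaf1b replicate 1 and 40.3 CPM in dChaf1b replicate 2. In the chromosome 5 cluster of Gbp6, 1 of 3 family genes tested (Gbp9) and 0 of 8 neighbors were called higher, and 1 neighbor was called lower. Around Iigp1 on chromosome 18, 1 of 4 family genes was tested, Iigp1 itself, and it was called, while 0 of 9 neighbors were. Tgtp1 was 1 of the 3 family genes called in its cluster. Both genes passed the low-count filter only through the dChaf1b libraries, so the filter favored their calls.

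Of the ligands that induce these GTPases, Ifng was counted 0 times in all 4 libraries, where 3 counts would be 0.162 CPM in the shallowest and the exact 95% counting interval there runs to 0.2 CPM. Ifnb1 was counted 0 times in 3 libraries and 1 time in dChaf1b replicate 2. Ifna13 was counted 0 times in both controls and 4 and 6 times in dChaf1b replicates 1 and 2, and Il12b, a subunit of IL-12, was counted 2 and 4 times, then 23 and 15 times. Ifnk, another interferon gene, was counted 13 and 4 times in the controls and 4 and 27 times in dChaf1b replicates 1 and 2. Of 21 ligand genes listed, 15 were counted, 6 interferon-α genes not being matched by name, and of the 15, 6 were tested and 0 were called in either dChaf1b library by edgeR. At an unadjusted p under 0.05 with the 2 dChaf1b libraries as replicates, 1 of the 6, Il12b, was higher, against 9.15% of all genes. Il12b passed the low-count filter only through the dChaf1b libraries, so that it entered the test because it was high there.

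Interferon receptors and their kinases were expressed in every library. Ifngr1 and Ifngr2, the chains of the interferon-γ receptor, had 207 and 311 CPM and 58.1 and 48.8 CPM in the controls. Ifngr1 had 175 and 162 CPM in the dChaf1b libraries, and Ifngr2 had 79.3 and 73.2 CPM. Ifnar1 and Ifnar2, the type I receptor chains, had 94.4 and 102 CPM and 88.3 and 79.0 CPM in the dChaf1b libraries, against 79.5 and 81.2 CPM and 51.2 and 57.3 CPM in the controls. None of these 4 was called in either library by edgeR. In the list of 11 receptor, kinase and signalling genes, 2 were called higher in dChaf1b replicate 1 and 0 in dChaf1b replicate 2. They were Stat2 and Il10rb, a chain of the receptors for interferon-λ and IL-10. Stat2 had 49.8 and 37.0 CPM in the controls, 100 CPM in dChaf1b replicate 1 and 57.1 CPM in dChaf1b replicate 2. Il10rb had 32.9 and 32.6 CPM in the controls, then 69.4 and 56.4 CPM. Ifnlr1, the other chain of the interferon-λ receptor, had 13.6 and 10.4 CPM in the controls, then 26.4 and 33.2 CPM, and was not called. With both dChaf1b libraries as replicates, 5 of the 11 were higher by edgeR at an unadjusted p under 0.05, against 9.15% of all genes. Both dChaf1b libraries lay above both MIGR1 libraries for 7 of the 11, against 21.4% of all genes.

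Among the 9 interferon regulatory factors, 2 were called higher in dChaf1b replicate 1 and 0 in dChaf1b replicate 2. Irf7, the factor that amplifies type I interferon responses, had 20.4 and 29.3 CPM in the controls, 276 CPM in dChaf1b replicate 1 and 35.8 CPM in dChaf1b replicate 2. Irf9, the DNA-binding part of the ISRE complex, had 45.0 and 44.8 CPM in the controls, then 124 and 39.4 CPM. Irf1, which acts on GBP and IRG genes after interferon-γ, had 37.6 and 45.9 CPM in the controls, then 73.0 and 55.6 CPM, and was not called (adjusted p = 0.0718 in dChaf1b replicate 1, edgeR's quasi-likelihood test). Of 6 feedback inhibitors, 2 were called higher in dChaf1b replicate 1 and 0 in dChaf1b replicate 2. Usp18, which damps signalling at the type I receptor, had 6.95 and 7.40 CPM in the controls, then 94.6 and 9.91 CPM. Socs1, an inhibitor of JAK kinases, had 10.8 and 10.5 CPM in the controls, then 31 and 18.2 CPM.

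Genes of the machinery that GBPs and IRGs work with were read next. Of 10 genes of ATG8 loading, which guides IRGs and GBPs to vacuoles, 0 were called in either dChaf1b library by edgeR. At an unadjusted p under 0.05 with both dChaf1b libraries as replicates, 1 of the 10 was higher, against 9.15% of all genes. Their median log2 fold changes were 0.38 in dChaf1b replicate 1 and 0.01 in dChaf1b replicate 2. Of 7 inflammasome genes, 1 was called higher in dChaf1b replicate 1, Il1b, the cytokine that inflammasomes release. Il1b had 12.8 and 26 CPM in the controls, 64.8 CPM in dChaf1b replicate 1 and 70.0 CPM in dChaf1b replicate 2, with both dChaf1b values above both controls.

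Targets typical of type I interferon and of interferon-γ were listed separately. All 12 of the listed type I interferon targets were called higher in dChaf1b replicate 1, and 0 of 12 in dChaf1b replicate 2. In the comparison of the 2 dChaf1b libraries with each other, 12 of 12 were called. Their ratios to the controls in dChaf1b replicate 1 ran from 2.93 for Ifit2 to 48.5 for Ifit3, with a median of 18.1. Ifit1, a sensor of viral RNA, had 5.41 and 6.41 CPM in the controls, 163 CPM in dChaf1b replicate 1 and 4.06 CPM in dChaf1b replicate 2. Isg15, a ubiquitin-like modifier, had 1.28 and 2.05 CPM in the controls, then 43.1 and 2.98 CPM. Oasl2, of the oligoadenylate synthetase family, and Rsad2 (viperin) had ratios of 24.7 and 22.6 in dChaf1b replicate 1. The ratios of the 9 GTPases in that library all lay below that median, and the difference between the lists was not tested.

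Of the 8 tested genes listed as interferon-γ targets, 4 were called higher in dChaf1b replicate 1 and 1 in dChaf1b replicate 2. Cxcl9, a chemokine for T cells, had 0.0880 and 0.197 CPM in the controls and 3.19 and 3.30 CPM in the dChaf1b libraries. It was the 1 DEG of the list with both dChaf1b libraries as replicates (log2 fold change 4.47, adjusted p = 0.0413, edgeR's quasi-likelihood test, Benjamini-Hochberg adjusted). Its controls rest on 2 and 5 counts, and it passed the low-count filter only through the dChaf1b libraries, so that it entered the test because it was high there. Cxcl10 had 2.16 and 1.89 CPM in the controls, then 14.4 and 5.20 CPM. Serpina3g, a serpin of the cytosol, had 95.7 and 107 CPM in the controls, then 247 and 213 CPM. Tap1, a peptide transporter for MHC class I, had 68.1 and 90.9 CPM in the controls, then 203 and 85.2 CPM. Cxcl9, Cxcl10 and Serpina3g were thus above both controls in both dChaf1b libraries, and Tap1 in dChaf1b replicate 1 alone. Nos2, which makes nitric oxide, was not called and had 1.85 and 6.61 CPM in the controls, then 3.44 and 21.1 CPM.

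**Figure D4:**
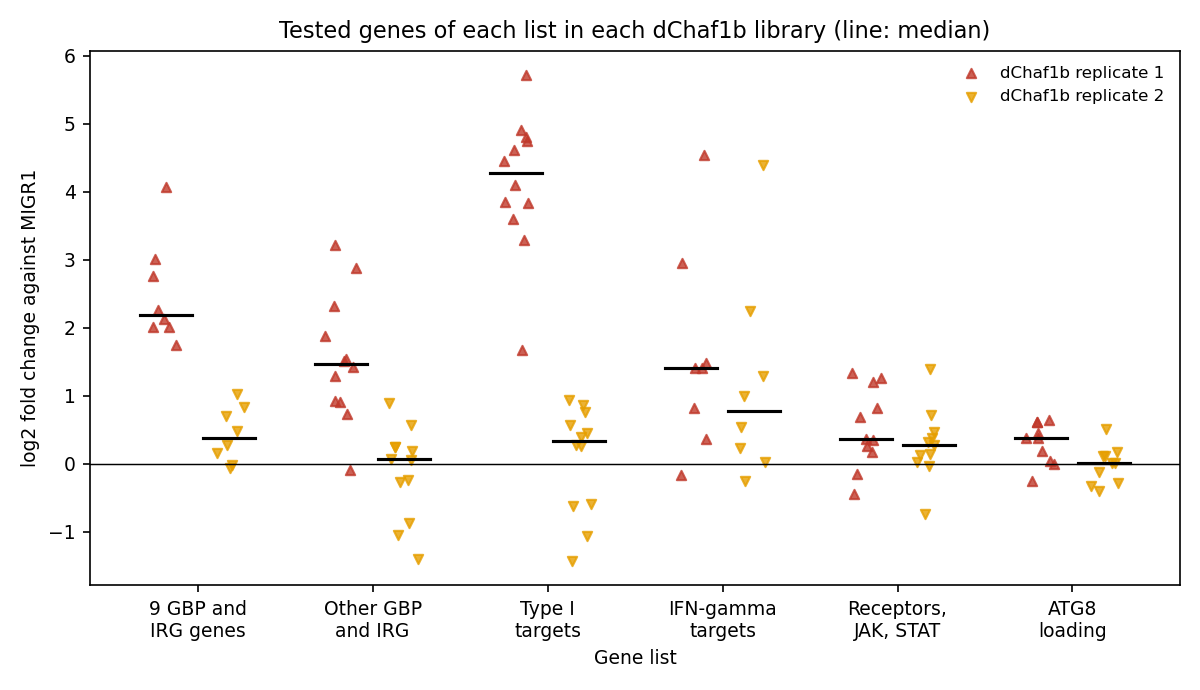
Log2 fold change of each tested gene of 6 lists in each dChaf1b library against the 2 MIGR1 libraries, with a line at the list's median. The medians for dChaf1b replicate 1 are 2.19 for the GTPases and 4.28 for the type I targets, and those for dChaf1b replicate 2 are 0.39 and 0.33.

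Markers of other cell types were read in the same libraries. Summed over 7 macrophage markers the level was 165 and 479 CPM in the MIGR1 libraries and 382 and 298 CPM in dChaf1b replicates 1 and 2, so that the highest value was in a control. Of the 7, 0 were called in either dChaf1b library by edgeR. C1qa was counted 15 and 589 times in the controls and 249 and 8 times in the dChaf1b libraries, while Adgre1 had 41.5 and 76.9 CPM, then 102 and 92.2 CPM, and Marco was at 1 to 4 counts. Summed over 7 dendritic cell markers the level was 20.0 and 24.7 CPM in the controls and 84.9 and 73.1 CPM in the dChaf1b libraries, high in both. Among these markers Flt3, also listed as an HSPC marker, had 4.66 and 5.31 CPM in the controls, then 19.3 and 22.7 CPM. Of these 7, 3 were called higher in dChaf1b replicate 1, namely Itgax, Ccr7 and Flt3, and 2 in dChaf1b replicate 2, Ccr7 and Flt3. Xcr1, Clec9a and Zbtb46, markers of conventional dendritic cells, were not called in either, and Zbtb46 had 5.50 and 6.41 CPM in the controls, then 4.76 and 9.48 CPM. For both cell types, their part in the values of the GTPases was not tested. T cells and NK cells are the usual source of interferon-γ, and 6 of their 10 markers, including Cd3e, Cd8a, Cd4 and Ncr1, were at 0 to 9 counts in every library. The sum of the 10 was 329 and 219 CPM in the controls and 195 and 254 CPM in the dChaf1b libraries, nearly all from Gzmb and Nkg7. B cell markers (5 genes) summed to 15.1 and 17.9 CPM, then 29.3 and 24.0 CPM. Erythroid markers (4 genes) summed to 41.1 and 22.6 CPM, then 22.3 and 26.4 CPM, and those of stroma and endothelium (4 genes) to 219 and 235 CPM, then 273 and 253 CPM. Pecam1 made up nearly all of the last sum, and Col1a1 had 2.20 and 1.22 CPM, then 5.44 and 3.84 CPM, and Cdh5 was counted 4 and 2 times, then 12 and 19 times. Neither was called in either library. Ly6a (Sca-1), an HSPC marker that interferons are known to raise, had 3.78 and 10.4 CPM in the controls, 63.9 CPM in dChaf1b replicate 1 and 11 CPM in dChaf1b replicate 2.

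Genes whose levels followed the mean profile of the 8 tested GTPases (without Gbp6) most closely were ranked by Euclidean distance of centred log2(CPM + 0.1) values over the 4 libraries. Of 10919 candidate genes with a mean log2 CPM of at least 2, the nearest were Trim30a (distance 0.0285), Epsti1 (0.204), Slfn1 (0.245), Ifi27l1 (0.286) and Lgals3bp (0.315). The next were Slfn8 (0.319), Ube2l6 (0.329), Isg20 (0.390), Ifitm3 (0.402) and Myl10 (0.444). Trim30a had 44.9 and 48.3 CPM in the controls, 233 CPM in dChaf1b replicate 1 and 65.8 CPM in dChaf1b replicate 2. The distances of these 8 GTPases from their mean ran from 0.295 for Gbp3 to 1.10 for Iigp1, and 151 candidates were nearer than Iigp1. With 4 libraries of which 1 stands apart, this likeness mostly describes how far a gene was raised in dChaf1b replicate 1.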

How the data were processed

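RNA-seq of 4 HSPC libraries was analysed. Per the study's methods, the authors aligned reads to mm9 with STAR and assigned them to genes with HTSeq-count. The deposited tables hold the raw counts of 1 library each, not pooled. The kit was stranded, while the strand setting and annotation release of the counting are not given in the sources used here. Of 43629 gene identifiers, 33068 were named from NCBIM37, the Ensembl name of mm9, and 10561 were not. Reads outside genes (35.8% to 48.3% of those on genes, outside genes or ambiguous) stayed out of library sizes. HTSeq-count leaves out reads that align to several places, so near copies lose reads.

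Counts were filtered with edgeR 4.0.16 (R 4.3.3, limma 3.58.1, minimum count 10), normalized by TMM (factors 0.926 to 1.06) and compared by two-sided quasi-likelihood tests (glmQLFit, glmQLFTest), without covariates, with Benjamini-Hochberg adjustment over all 16500 genes tested. Calls needed a change of at least 1.5-fold and an adjusted p under 0.05. A fit with 3 groups compared each dChaf1b library with MIGR1, with 1 residual degree of freedom. Scripts were tested on simulated data. CPM values are scaled to the total counted on genes, without TMM. Reads carry no molecular identifiers, so intervals and floors (3 counts) cover counting error only. With 2 libraries a group, p-values measure only the spread between these libraries, which may be technical.

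Members and gene lists were chosen with earlier results of these data known. Named were the members, Chaf1b, list genes called in a comparison (up to 5 by fold in each list), Ifng, Ifnb1, the interferon receptors and the 10 genes of nearest profile. Irf1, Ifna13, Ifnk, Il12b, Nos2, Ly6a, Ifit2, Ifi47, Xist and the marker genes were named after their values were seen. 1 listed gene is not reported here. Promoter windows are RefSeq's. Alternatives were other normalizations (DESeq2's size factors, library size, upper quartile), other filters, edgeR's exact and likelihood ratio tests, DESeq2 1.42.0, the replicate number as a block, other thresholds and each library left out in turn.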

Additional observations from a re-analysis of the deposited data

How the results depend on the processing

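The number of GTPase genes that were DEGs with both dChaf1b libraries as replicates, 0 of 8, became 8 of 9 without a low-count filter and 1 with the likelihood ratio test or DESeq2, where the gene was Iigp1. It lay between 0 and 8 over the fits that left out 1 library, in which a lone library is assumed to vary like the other group. All of the 8 log2 fold changes kept their sign under the alternatives that kept the 4 libraries. In the fits that left out 1 library they ranged from 0.48 to 2.78 for Gbp2, 0.16 to 2.27 for Gbp3, 0.69 to 1.77 for Gbp5, -0.069 to 2.03 for Irgm1, 0.28 to 2.02 for Irgm2, -0.028 to 2.15 for Igtp, 1.01 to 4.09 for Iigp1 and 0.83 to 3.03 for Tgtp1. The negative values were those without dChaf1b replicate 1. In dChaf1b replicate 1, fewer of the GTPase genes were called under each of the other normalizations than in the main fit. Fewer were also called when every library had to hold at least 10 counts, a filter that leaves Iigp1, Tgtp1 and Gbp6 untested. More were called without a low-count filter. In dChaf1b replicate 2, 1 gene (Iigp1) passed a 2-fold mark with no test. Over all genes, 61 higher and 1 lower DEGs became 808 and 79 without a filter, 3 and 0 when every library had to hold at least 10 counts, 537 and 37 with the exact test, 583 and 40 with the likelihood ratio test, 471 and 32 with DESeq2, and 0 and 0 at 2-fold with an adjusted p under 0.01. Library size alone gave 30 higher. In the fits without 1 library, 125 to 331 genes were higher and 6 to 42 lower. The cause of these changes was not tested.

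With the replicate number as a block, 14 genes were higher and 0 lower, and 0 of the 8 GTPases were DEGs. Deviations of same-numbered libraries from their group means correlated at 0.0119. This value cannot show whether same-numbered libraries share an animal, a culture or a batch, and pairing was not established. Xist had 1.14 CPM in MIGR1 replicate 1 and 336 CPM in dChaf1b replicate 1, and whether these libraries had different donors was not tested. Each group has 2 libraries. Of the 9 genes, Gbp6, Iigp1 and Tgtp1 had the fewest counts in the controls and the widest counting intervals of their ratios, so depth limits their values.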
